A study of Mus musculus with 24 samples.

Results

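The genes described here are the 9 mouse genes Atf4, Atf5, Asns, Trib3, Chac1, Psat1, Phgdh, Sesn2 and Slc7a11, which stand for the ATF4 branch of the integrated stress response. They were taken by gene symbol, and all 9 were found among the 55421 genes of the count table. Of these, 7 had enough reads to be tested together with the other genes (13583 in all), and Phgdh and Slc7a11 did not. RNA was sequenced from hepatocytes, the parenchymal cells that carry out most liver metabolism, isolated from 24 male mice by collagenase perfusion and a Percoll gradient. The 4 groups held 6 mice each: young mice on normal diet (young ND), young mice on high-fat diet (young HFD), old mice on normal diet (old ND) and old mice on high-fat diet (old HFD). Young mice were C57BL/6N aged 6 months per the sample labels and old mice were C57BL/6J aged 24 months, and the design cannot tell age from substrain. The study's own text gives other ages. The HFD supplied 60% of energy as fat for 9 weeks. The labels give the ND as a chow with 18% protein, whereas the study's methods describe the normal diet by its share of calories from fat. The labels name no engineered allele or drug.

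The libraries came in 2 batches, and each batch held 3 mice of every group, apart from old ND with 2 mice in batch 1 and 4 mice in batch 2. Total counts per mouse ran from 9200332 to 22185069, and the 6 old HFD mice had the smallest. The hepatocyte marker genes were abundant in every mouse, with a summed level of 43766 to 157157 CPM (read counts scaled to library size). Marker genes of other liver cells were detected in every group at far lower levels. The median summed level of 10 immune markers was 18.7 CPM in young ND mice and 98.4 with HFD, and 146.9 CPM in old ND mice and 149.6 with HFD. For 6 stellate cell markers the medians were 28.9, 54.4, 100.5 and 64.9 CPM in the same order, and for 6 sinusoidal endothelial markers they were 45.4, 95.5, 104.7 and 77.7 CPM. Among the immune markers, Cd79a had no count in young ND.

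In the integrated stress response, kinases that sense amino acid shortage, unfolded protein in the endoplasmic reticulum, heme shortage or viral RNA phosphorylate the translation factor eIF2alpha. Most protein synthesis then slows, while the mRNAs of the transcription factors ATF4 and ATF5 are translated more. ATF4 binds with partners to C/EBP-ATF response elements and turns on genes for amino acid synthesis, amino acid uptake, tRNA charging and feedback on stress signaling. Because ATF4 and ATF5 are controlled mainly at translation, the mRNA levels of these 2 factors do not report their protein. In the liver the pathway is known for its reaction to fasting, to diets short of an amino acid and to secretory stress.

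The C/EBP-ATF element was looked for in the promoters of the 9 genes, because it is the sequence through which ATF4 acts on its targets. The promoter was the stretch from 250 bases before to 50 bases after the start of the RefSeq transcript on GRCm38.p6. The letters TGATGNAA, on either strand, were found in the promoters of 4 of the 9 genes, Asns, Trib3, Chac1 and Slc7a11. Of all 32851 promoters of this length, 3.97% held them, and counted by gene 1219 of 27025 held them in a promoter. Each window below is written 5′ to 3′ on the strand of its gene, with the match in capitals.
Asns, 23 bases before the start, chr6:7693214-7693243, minus strand: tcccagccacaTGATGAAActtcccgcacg
Trib3, 15 bases after the start, chr2:152344028-152344057, minus strand: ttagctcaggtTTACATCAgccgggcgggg
Chac1, 193 bases before the start, chr2:119351038-119351067, plus strand: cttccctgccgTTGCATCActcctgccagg
Slc7a11, 66 bases before the start, chr3:50443661-50443690, minus strand: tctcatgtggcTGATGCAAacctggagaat
Slc7a11, 47 bases before the start, chr3:50443642-50443671, minus strand: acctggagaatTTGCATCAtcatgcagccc
In GENCODE M21 the Asns match lies in an untranslated part of an exon of Asns. The Trib3 match lies upstream of Trib3 there, although it follows the RefSeq start and its window reaches into the gene, and the windows of Chac1 and Slc7a11 lie outside any gene. The Slc7a11 windows overlap each other, but their matches do not. The letters TGACNNNGC, the core of the antioxidant response element, were present in the promoters of Asns, Sesn2 and Phgdh and in 12.4% of all promoters, and the Asns match did not overlap the C/EBP-ATF match. Counted by gene, 3781 of 27025 held the letters of the antioxidant response element in a promoter. A match describes the sequence and does not show that a factor binds there.

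Across all 24 mice the factors themselves were by far the most abundant of the 9 transcripts. Levels were compared between genes as CPM per kilobase of merged exons, since longer transcripts collect more reads. The median was 179 CPM per kilobase for Atf5 and 47.7 for Atf4. Next came Trib3 at 2.86, Sesn2 at 1.98, Chac1 at 1.60 and Asns at 1.28, whose ranges over the 24 mice overlapped one another. Psat1 was at 0.0941, Phgdh at 0.0456 and Slc7a11 at 0.00725 CPM per kilobase, the lowest of the 9. The deposited FPKM values order the lower genes differently. Over 13180 genes, the length that CPM and FPKM together imply was 0.953 times the full genomic span of the gene at the median, introns included, and 4.91 times its merged exon length. FPKM was therefore not used to compare levels between genes.

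**Figure D1:**
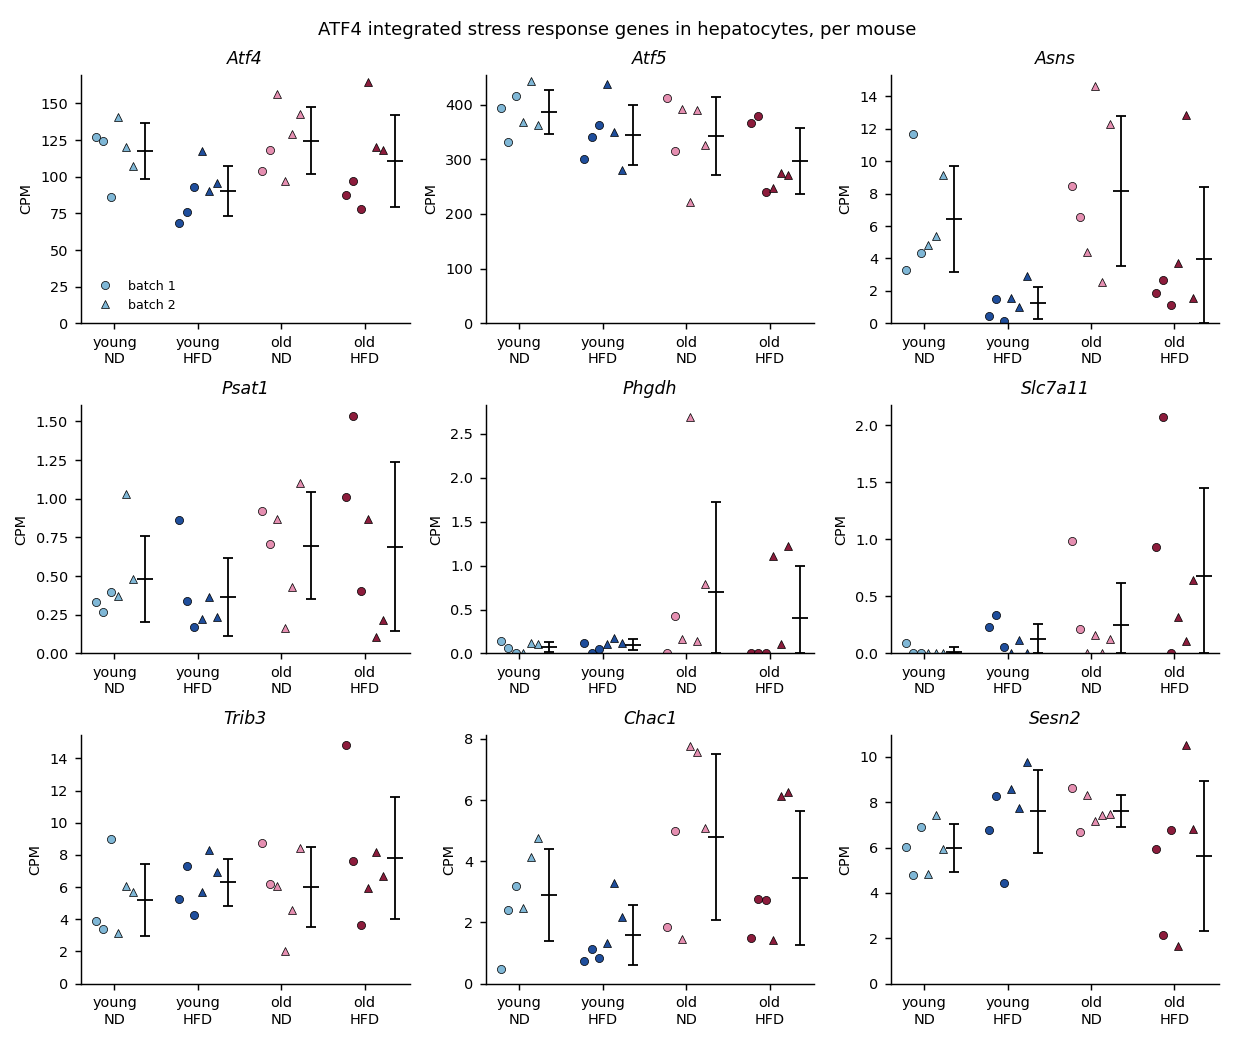
Level of each of the 9 genes in CPM (vertical axis, linear, from 0) in every mouse of the 4 groups. Circles are batch 1 and triangles batch 2, and the black dash and bar show the mean and SD of 6 mice, with the bar stopped at 0. All 6 young HFD mice lie below all 6 young ND mice for Asns, and for the other genes the groups overlap. How common such a separation is over all tested genes was not counted.

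In young hepatocytes Asns fell with HFD, and none of the 7 tested genes was called higher. Asns encodes asparagine synthetase, which makes asparagine from aspartate and glutamine and is a standard readout of ATF4 activity. In young ND its level was lowest at 3.31 CPM, with a median of 5.10 and a highest value of 11.7. In young HFD it was lowest at 0.113 CPM, with a median of 1.28 and a highest value of 2.91. Every young HFD mouse was thus below every young ND mouse, and the mean fell from 6.44 ± 3.25 to 1.27 ± 0.988 CPM (SD, n = 6). How many of all tested genes separate these groups completely was not counted. The fitted log2 fold change was -2.48 (SE 0.57, 95% interval -3.59 to -1.37), and the quasi-likelihood test of edgeR gave an adjusted p of 0.0195 (Benjamini-Hochberg over all genes tested). Counts behind these values were low, from 65 to 174 reads per young ND mouse and from 2 to 49 per young HFD mouse.

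This was the 1 member called of 7 tested in the comparison of young HFD with young ND. Of all genes tested, 3.5% were called there in either direction and 1.59% were lower. The Asns change had the same sign in both batches, at -3.18 (SE 0.73) in batch 1 and -1.78 (SE 0.75) in batch 2, with adjusted p-values of 0.0648 and 0.589 in edgeR's quasi-likelihood test. Leaving out any 1 of the 24 mice kept the change between -2.78 and -2.07. The call was lost without young ND replicate 2 (adjusted p = 0.0608, edgeR), young HFD replicate 1 (0.0548) or young HFD replicate 5 (0.0536), and also without the batch term (0.0517). In the same comparison 0 of 8 hepatocyte markers were called, while Cd74, Stab2 and Dcn, each 1 marker of immune, endothelial and stellate cells, rose. The part of such cells in the Asns result was not tested, and in these bulk samples fewer cells of a type and less RNA per cell cannot be told apart.

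In old mice the Asns levels of the diets overlapped. Old ND mice had 2.57 CPM at the lowest, a median of 7.51 and 14.6 at the highest. Old HFD mice had 1.13 CPM at the lowest, a median of 2.28 and 12.9 at the highest, and 3 of the 6 lay below every old ND mouse. The highest old HFD value belonged to replicate 5, the mouse with the smallest total count of the series, and the remaining 5 old HFD mice were at or below 3.71 CPM. The log2 fold change was -1.09 (SE 0.53, adjusted p = 0.229, edgeR), and without old HFD replicate 5 it was -1.76 (adjusted p = 0.0458, edgeR), which passes the threshold. Without the count filter on all genes it also passed, at -1.10 with a smaller SE of 0.27 (adjusted p = 0.00357, edgeR). That setting called 1108 of 32336 genes, against 409 of 13583 with the filter.

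The Asns levels of old ND and young ND overlapped, and their difference did not pass the test (log2 fold change 0.20, SE 0.52, adjusted p = 0.864, edgeR). Old HFD mice had a higher mean than young HFD mice, 3.98 ± 4.46 against 1.27 ± 0.988 CPM, but the log2 difference of 1.59 (SE 0.56) did not pass the test (adjusted p = 0.122, edgeR). DESeq2 placed it below the threshold, at 1.62 with an adjusted p of 0.0440, as did edgeR without the count filter, at 1.54 (adjusted p = 1.73e-05). Over all genes, DESeq2 called 859 of 13583 there and edgeR without the filter 1235 of 32336, against 304 of 13583 in the reported model. The test of whether the diet effect differed with age gave a log2 difference of 1.39 (SE 0.76, 95% interval -0.10 to 2.88, adjusted p = 0.571, edgeR). Without the count filter it was 1.37 with an adjusted p of 0.0295 (edgeR). Whether a difference in the Asns response between young and old mice was called thus turned on that filter. Over all genes the interaction had 587 of 32336 called without the filter and 0 of 13583 with it. In order of mean level the groups ran old ND, young ND, old HFD and young HFD, and no neighbours in that order passed the edgeR test of their difference in the filtered table.

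**Figure D2:**
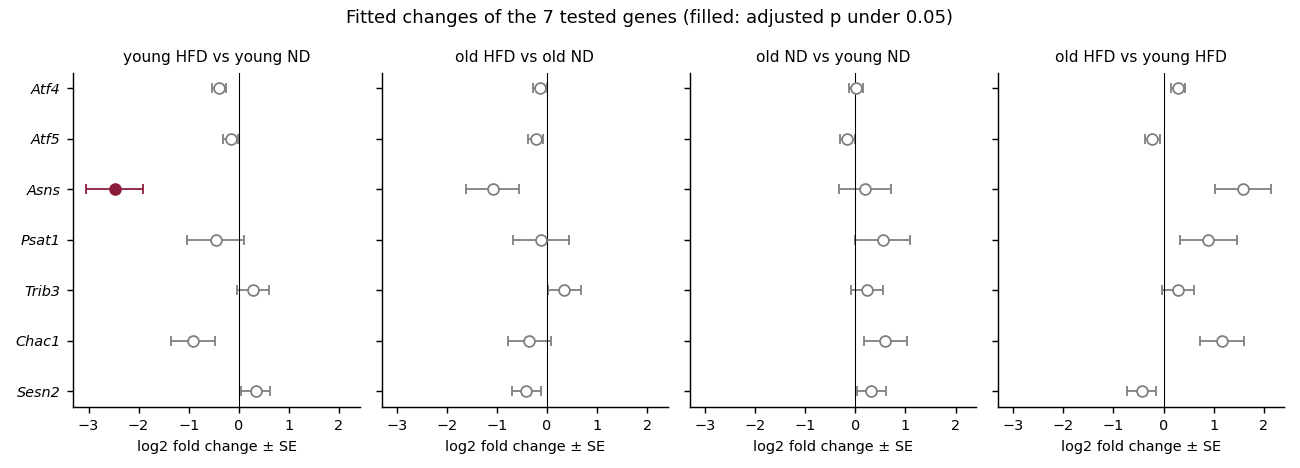
Log2 fold change with its standard error (horizontal axis) of the 7 tested genes (rows) in 4 comparisons of 6 mice against 6, from edgeR with a batch term. The filled point, Asns in young HFD against young ND at -2.48, is the 1 change that passed an adjusted p of 0.05, and open points did not pass.

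Atf4 encodes the transcription factor at the centre of the response. It was abundant in every mouse, with 965 to 2880 reads. In young ND the lowest level was 85.9 CPM, the median 122.3 and the highest 141.0. In young HFD they were 68.7, 91.4 and 117.7 CPM, and 2 of the 6 mice lay below every young ND mouse. The mean was 118 ± 19.03 CPM in young ND and 90.2 ± 16.996 in young HFD. The log2 fold change of -0.40 (SE 0.14) did not pass the test in the model of all mice (adjusted p = 0.104, edgeR). It did in a model of the 12 young mice alone, at -0.37 with an adjusted p of 0.0434 (edgeR). That model called 2302 of 12353 genes, against 475 of 13583 in the model of all mice.

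In old mice the Atf4 diet groups overlapped, with 3 old HFD mice below every old ND mouse and 1 above all of them. Old ND mice ran from 96.8 CPM through a median of 123.7 to 156.3, and old HFD mice from 77.7 through 107.6 to 164.9. The log2 fold change was -0.13 (SE 0.14, 95% interval -0.41 to 0.14, adjusted p = 0.622, edgeR), and in batch 2 alone it turned to 0.05. Old ND and young ND differed by 0.02 (SE 0.14, adjusted p = 0.951, edgeR), a sign that turned with the FPKM values, to -0.14. Old HFD exceeded young HFD by 0.28 (SE 0.14), which did not pass (adjusted p = 0.249, edgeR).

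Atf5 encodes a related factor whose mRNA is also translated more when eIF2alpha is phosphorylated. In young ND its level ran from 331.4 CPM through a median of 381.4 to 444.1, and in young HFD from 280.0 through 346.1 to 437.5. Old ND mice had 222.5 CPM at the lowest, 358.4 at the median and 412.5 at the highest, and old HFD mice 240.5, 273.5 and 379.6. The means fell in that order of groups, each step being smaller than the SD of the more variable group. The difference between the ends of that order, old HFD against young ND, was -0.38 on the log2 scale (SE 0.15), and 4 of 6 old HFD mice lay below every young ND mouse. Its adjusted p of 0.0550 in edgeR's quasi-likelihood test was just above the threshold. With limma on log2(FPKM + 1) the change was -0.46 with an adjusted p of 0.0466, and 5 of the 24 fits that left out a mouse also passed. Atf5 shares 82 exon bases with Nup62 and Il4i1 on the opposite strand, and whether the counting used strand is not given in the sources used here.

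Trib3 encodes a pseudokinase induced by ATF4 that feeds back on the pathway and is known to restrain insulin signaling to AKT. Its level ran from 3.12 CPM through a median of 4.77 to 9.01 in young ND and from 4.29 through 6.32 to 8.30 in young HFD. It ran from 2.04 through 6.14 to 8.76 CPM in old ND and from 3.62 through 7.15 to 14.8 in old HFD. The log2 fold change with HFD was 0.29 (SE 0.32) in young and 0.35 (SE 0.32) in old mice, neither of which passed (adjusted p = 0.673 and 0.566, edgeR). Old HFD against young ND gave 0.58 (SE 0.32, adjusted p = 0.172, edgeR). The highest value, 14.8 CPM, was that of old HFD replicate 1.

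Chac1 encodes an enzyme that breaks down glutathione and is induced late in the response through ATF4. In young ND it ran from 0.473 CPM through a median of 2.83 to 4.76, and in young HFD from 0.747 through 1.24 to 3.27. In old ND it ran from 1.47 through 5.04 to 7.76 CPM, and in old HFD from 1.42 through 2.75 to 6.26. Of the old HFD mice, 2 exceeded every young HFD mouse. The log2 fold change was -0.92 (SE 0.44) for young HFD against young ND and 1.16 (SE 0.44) for old HFD against young HFD. Neither passed, with adjusted p-values of 0.227 and 0.140 in edgeR's quasi-likelihood test. The second was called without the count filter, at 1.12 with an adjusted p of 0.0313 (edgeR). That setting called 1235 of 32336 genes there, against 304 of 13583 with the filter. Batch 2 mice had higher means than batch 1 mice in all 4 groups, such as 3.79 against 2.02 CPM in young ND.

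Sesn2 encodes sestrin 2, a stress-induced inhibitor of mTORC1 that also senses leucine. It ran from 4.77 CPM through a median of 5.97 to 7.45 in young ND and from 4.46 through 8.004 to 9.79 in young HFD, where 4 of 6 mice exceeded every young ND mouse. It was tight in old ND, from 6.69 through 7.45 to 8.62 CPM, and wide in old HFD, from 1.66 through 6.34 to 10.5. In old HFD, replicates 2 and 4 were at 2.15 and 1.66 CPM, and the remaining 4 mice were between 5.93 and 10.5 CPM. The log2 fold change was 0.33 (SE 0.28) with HFD in young mice and -0.42 (SE 0.29) in old mice. The difference between these diet effects was -0.75 (SE 0.41, adjusted p = 0.566, edgeR), so it did not pass the test. Old HFD replicates 2 and 4 came from different batches, and their summed stellate markers were 24.0 and 305.8 CPM.

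Psat1 and Phgdh, 2 enzymes of serine synthesis, were barely expressed. Psat1, the transaminase of the pathway, was between 0.107 and 1.54 CPM in all 24 mice, which is 1 to 20 reads per mouse. Its median was 0.384 CPM in young ND mice and 0.288 with HFD, and 0.786 CPM in old ND mice and 0.636 with HFD. All fitted changes of Psat1 were smaller than 1 on the log2 scale in the model of all mice and none passed the test.

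Phgdh, the dehydrogenase that starts serine synthesis, had at most 33 reads in a mouse and none in 7 of 24. It summed to 8 reads over the 6 young ND mice and 10 with HFD, and to 57 reads over the old ND mice and 32 with HFD. The higher sums in old mice came from a few animals. Old ND replicate 4 had 2.696 CPM, old HFD replicate 6 had 1.22, old HFD replicate 4 had 1.11 and old ND replicate 6 had 0.796, and all other mice were at or below 0.423 CPM. The mice named here were all from batch 2, and every old HFD mouse of batch 1 had 0 reads. The 3 mice with most Phgdh were also the 3 with the highest summed stellate markers, at 389.6, 283.6 and 305.8 CPM, and the highest summed endothelial markers, at 543.8, 418.1 and 270.8 CPM. Old ND replicate 4 also had the lowest summed hepatocyte markers, 43766 CPM. The part of these cells in the Phgdh reads was not tested. Reads of Phgdh may also be shared with its pseudogene, so its level is uncertain.

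Slc7a11, the cystine and glutamate exchanger that supplies cysteine for glutathione, had no read in 10 of 24 mice. Its reads summed to 2 in young ND mice and 13 with HFD, and to 21 in old ND mice and 53 with HFD. The 2 reads of young ND were from a single mouse. Old HFD replicate 2 alone gave 27 reads (2.07 CPM), followed by old ND replicate 1 at 0.989 CPM and old HFD replicate 1 at 0.936 CPM. These 3 mice were all from batch 1, with summed stellate markers of 24.0, 73.8 and 64.0 CPM. Their summed immune markers were 103.0, 153.0 and 176.7 CPM, beside 2.42 to 5.30 CPM in the batch 1 young ND mice. The part of other liver cells in the Slc7a11 reads was not tested. Slc7a11 was too low for the count filter, so it has no value in the model of the filtered genes. With every gene kept, it was called higher in old ND relative to young ND (log2 fold change 3.43, SE 1.13, adjusted p = 0.0396, edgeR) and in old HFD relative to young ND (4.91, SE 1.12, adjusted p = 0.000257). Both folds are set against the 2 reads of 1 young ND mouse and depend on the prior count. With every gene kept, 2053 and 4623 of 32336 genes were called in these comparisons. In the first, 7 of 8 tested immune, 4 of 6 endothelial and 5 of 6 stellate markers were higher too. In the second they were 8 of 8, 6 of 6 and 4 of 6.

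**Figure D3:**
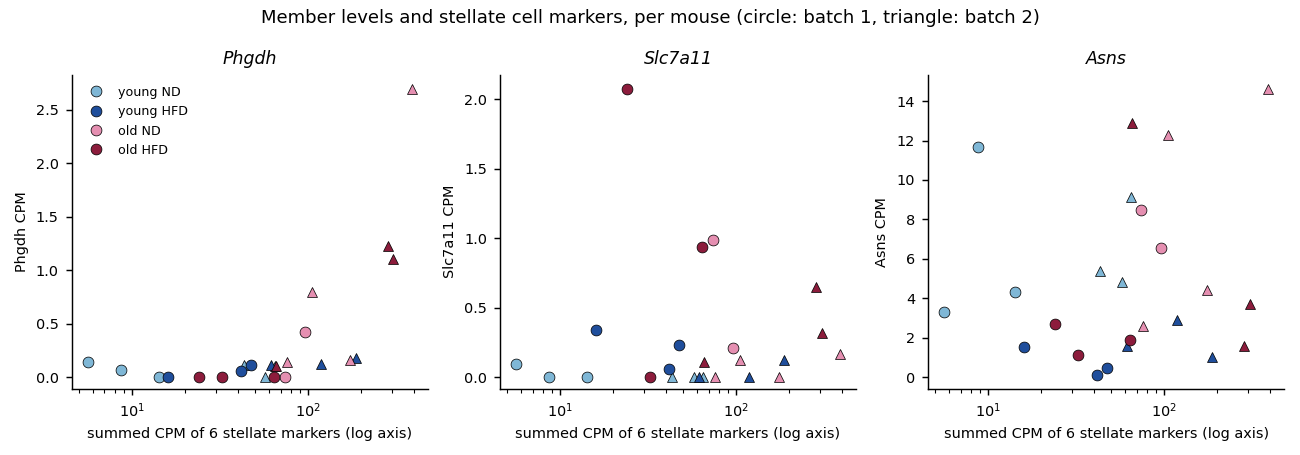
Level of Phgdh, Slc7a11 and Asns in CPM (vertical axes) against the summed CPM of 6 stellate cell markers (horizontal axis, logarithmic), 1 point per mouse, colored by group. The 3 mice with most Phgdh, from 1.11 to 2.696 CPM, are the 3 farthest to the right and are from batch 2. The mouse with most Slc7a11 (2.07 CPM) has 24.0 CPM of stellate markers and is from batch 1.

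Over the 7 tested genes the median log2 fold change was -0.40 in young HFD against young ND, beside 0.01 over all genes tested. For old HFD against old ND it was -0.22 beside -0.01, for old ND against young ND 0.24 beside 0.01, and for old HFD against young HFD 0.29 beside 0.01. For old HFD against young ND it was -0.10 beside 0.04. These comparisons share groups of mice and are not independent of each other. Apart from Asns in young HFD, 0 of 7 genes were called in any comparison, whereas the share of all genes called was 3.01% for old HFD against old ND, 8.5% for old ND against young ND, 2.24% for old HFD against young HFD and 30.2% for old HFD against young ND. The interaction of age and diet had 0% of genes called by edgeR, with 1247 of 13583 at an unadjusted p under 0.05 and 4 called by DESeq2.

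Beyond the 9 genes, 10 lists of genes of the wider pathway were measured. On the side of the sensors, none of the 4 eIF2alpha kinases passed the test with HFD at either age in the model of all mice. In alternative settings Eif2ak2 was called higher with HFD in old mice in 3 of 10 and Eif2ak3 lower in young mice in 2 of 10. In old HFD against young ND, the farthest-apart groups, 12.9% of all genes tested were lower and 17.3% higher. There Eif2ak1, the heme-regulated kinase, fell by 0.52 on the log2 scale (SE 0.14, adjusted p = 0.00849, edgeR) and Eif2ak3, the PERK kinase of the endoplasmic reticulum, fell by 0.55 (SE 0.16, adjusted p = 0.0155). Eif2ak2, the interferon-inducible kinase PKR, rose by 0.72 (SE 0.16, adjusted p = 0.00285, edgeR), and it was also higher in old HFD relative to young HFD, by 0.63 (SE 0.16, adjusted p = 0.0436). Eif2ak4, the amino acid sensor GCN2, was not called in any comparison. Of 9 genes of eIF2, its exchange factor and its phosphatases, Ppp1r15b alone was at the threshold, with -0.36 in old HFD relative to young ND (SE 0.14, adjusted p = 0.0487, edgeR). That call was kept in 3 of 10 alternative settings and in 4 of the 24 fits that left out a mouse, and with RLE normalization or DESeq2 the gene called was Eif2s2, higher, in its place. Ppp1r15a, the stress-induced phosphatase subunit, was called lower in young HFD relative to young ND in 3 of 10 alternative settings, without the count filter (adjusted p = 0.0418, edgeR), with DESeq2 (0.0482) and with only the groups compared (0.0454). Eif2s2 was called higher in old HFD relative to young HFD without the count filter (0.0307) and with DESeq2 (0.0272).

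Among 8 factors that pair with or follow ATF4, none was called with HFD at either age, and Ddit3, which encodes the stress factor CHOP, had log2 fold changes of 0.11 (SE 0.20) in young and -0.23 (SE 0.21) in old mice. Atf3 was higher in old ND relative to young ND (2.06, SE 0.61, adjusted p = 0.0344, edgeR), a call kept in 6 of 10 alternative settings and in 17 of the 24 fits that left out a mouse. In that comparison 7 of 8 tested immune, 4 of 6 endothelial and 5 of 6 stellate markers were higher too, and their part in the Atf3 result was not tested. In old HFD against young ND, 3 rose, Cebpd by 1.55 (SE 0.44), Cebpb by 0.81 (SE 0.25) and Jdp2 by 2.64 (SE 0.97), and Cebpg, a partner of ATF4, fell by 0.30 (SE 0.10). The count of 3 became 5 with RLE normalization or DESeq2, 2 without the batch term or with only the groups compared, 0 within batch 1 alone and 1 within batch 2 alone. Over all genes, 2642 of 13583 were higher with RLE normalization, 2955 of 13583 with DESeq2 and 1696 of 13583 without the batch term. With only the groups compared 1287 of 12034 were higher, within batch 1 alone 574 of 13543 and within batch 2 alone 342 of 14243. Atf3 was called higher there in 5 of 10 alternative settings and Nupr1 in 4, while the Cebpb call was kept in 5. Immune, endothelial and stellate markers differed in the same comparison, with 8 of 8, 6 of 6 and 4 of 6 tested markers higher, while of 8 hepatocyte markers Hnf4a, Cps1 and Tat fell and Apoa1 rose. The part of these differences in the factor changes of this comparison was not tested. The same holds for its changes in the kinase and eIF2 lists above and in the lists described next.

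Genes that charge tRNA with amino acids were measured next. The list held 13 genes, 12 for cytosolic aminoacyl-tRNA synthetases and Xpot for the exporter of tRNA from the nucleus. Of these, 7 were lower and 0 higher in old HFD relative to young ND, beside 12.9% of all genes lower. In that comparison the markers of other liver cells were higher. The lowest adjusted p belonged to Tars, the threonyl enzyme, which fell by 0.64 (SE 0.13, adjusted p = 0.00119, edgeR), followed by Iars, the isoleucyl enzyme, by 0.73 (SE 0.17, adjusted p = 0.00367) and Mars, the methionyl enzyme, by 0.46 (SE 0.11, adjusted p = 0.00434). The other 4 were Aars, Sars, Yars and Xpot. The median of the list was -0.27, beside 0.04 over all genes tested. With only the 12 mice of these groups in the model 3 were lower, within batch 1 alone 0 and within batch 2 alone 1. Over all genes, 807 of 12034, 345 of 13543 and 275 of 14243 were lower in those settings. In young HFD against young ND, Tars alone of the 13 was called, lower by a log2 fold change of -0.57 (SE 0.13, adjusted p = 0.0178, edgeR), and in old HFD against old ND none was, with a list median of -0.23. These counts moved with the model. For young HFD against young ND 5 were lower with only the groups compared, 2 with DESeq2 and 0 without the batch term. Over all genes, 1021 of 12353, 407 of 13583 and 88 of 13583 were lower in those settings. DESeq2 had 2 lower for old HFD against old ND, beside 522 of 13583 over all genes. The Tars call in young mice was also lost within either batch alone and without young HFD replicate 1 or replicate 5.

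**Figure D4:**
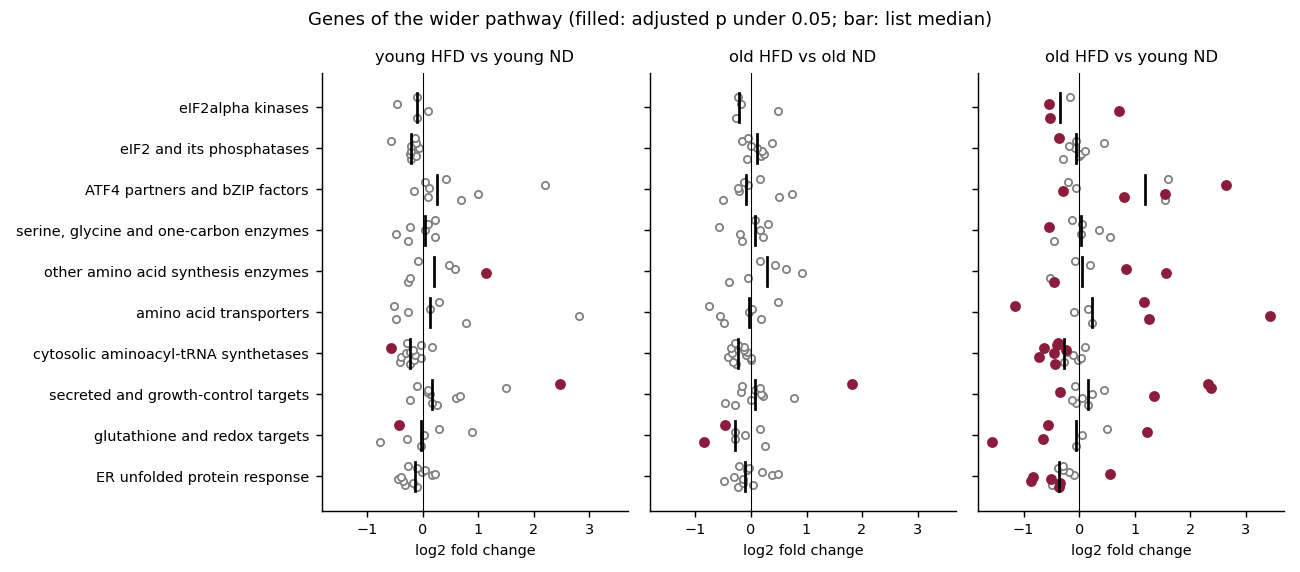
Log2 fold change (horizontal axis) of each tested gene of 10 pathway lists (rows) in 3 comparisons. Filled points passed an adjusted p of 0.05, open points did not, and the black bar is the median of the list. Most points are open with HFD at either age, and in old HFD against young ND 7 genes of the synthetase list are filled and lie left of 0.

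Enzymes of amino acid synthesis moved in either direction. Of 8 serine, glycine and one-carbon enzymes, 7 were tested, and Psph, the last enzyme of serine synthesis, was the 1 called in any comparison, lower in old HFD relative to young ND (-0.54, SE 0.16, adjusted p = 0.0162, edgeR). Glul, glutamine synthetase of pericentral hepatocytes, rose with HFD in young mice by 1.14 (SE 0.28, adjusted p = 0.0267, edgeR). In old mice Glul had a log2 fold change of 0.92 (SE 0.29, adjusted p = 0.0697, edgeR), short of the threshold. The young Glul call was kept in 7 of 10 alternative settings and in 20 of the 24 fits that left out a mouse. In old HFD against young ND, Glul (1.56, SE 0.29) and Got1 (0.85, SE 0.26) rose and Cbs fell by 0.45 (SE 0.12), which makes 3 called of 6 tested on a list of 8 synthesis enzymes outside the serine pathway.

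Of 9 amino acid transporters 7 were tested, and none was called with HFD at either age. Slc38a1 was higher in old ND relative to young ND by 4.01 (SE 0.89, adjusted p = 0.00741, edgeR), a call kept in 5 of 10 alternative settings and lost with only the groups compared, with limma at either pseudocount and within either batch alone. Slc1a5 was higher in old HFD relative to young HFD by 1.74 (SE 0.46, adjusted p = 0.0460). In old HFD against young ND, Slc38a1, Slc7a5 and Slc1a5 rose and the glycine transporter Slc6a9 fell by 1.15 (SE 0.31). In old ND against young ND, 7 of 8 tested immune markers and 5 of 6 stellate markers were also higher, and their part in the transporter changes was not tested.

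Of 12 secreted and growth-control targets 11 were tested. Vldlr, a lipoprotein receptor that takes up triglyceride-rich particles, rose with HFD at both ages, by 2.47 (SE 0.40, adjusted p = 0.00118, edgeR) in young and 1.82 (SE 0.41, adjusted p = 0.0202) in old mice. The call was kept in 9 of 10 alternative settings in young mice and in 6 in old mice, where it was lost with only the groups compared, with limma on log2(FPKM + 1), within either batch alone and without old ND replicate 2. Fgf21, a fasting hormone of the liver, had log2 fold changes of 0.61 (SE 0.36) and 0.77 (SE 0.38), neither of which passed. Gdf15, a stress hormone, was higher in old HFD relative to young ND by 1.34 (SE 0.35, adjusted p = 0.00730, edgeR). Trib2, a relative of Trib3, was higher in old ND relative to young ND by 2.21 (SE 0.68, adjusted p = 0.0436, edgeR). This call was kept in 12 of the 24 fits that left out a mouse. Immune, endothelial and stellate markers were higher in that comparison too, and their part was not tested.

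Among glutathione and redox genes, Txnrd1, thioredoxin reductase, fell with HFD by 0.44 (SE 0.12) in young and 0.46 (SE 0.12) in old mice, with adjusted p-values of 0.0428 and 0.0363 in edgeR's quasi-likelihood test. Gclc, which encodes the rate-limiting subunit for glutathione synthesis, fell with HFD in old mice by 0.85 (SE 0.24, adjusted p = 0.0476, edgeR). These 3 calls were near the threshold. For Txnrd1 the call was kept in 3 of 10 alternative settings and 10 of 24 fits with a mouse left out in young mice, and in 4 and 13 in old mice, and for Gclc in 4 and 7. Hmox1, heme oxygenase 1, was higher in old ND relative to young ND by 1.52 (SE 0.41, adjusted p = 0.0205, edgeR), a call lost in the same 5 of 10 alternative settings as that of Slc38a1 and in 3 of the 24 fits with a mouse left out. The immune, endothelial and stellate markers were higher in that comparison as well, and their part was not tested. Of 12 genes of the unfolded protein response of the endoplasmic reticulum, 0 were called with HFD at either age. In old HFD against young ND 5 were lower, among them Ern1 (-0.86, SE 0.17) and Ero1lb (-0.84, SE 0.19), and Hsp90b1 was higher (0.55, SE 0.21). The count of 5 lower fell to 2 with only the groups compared, 2 within batch 1 alone and 1 within batch 2 alone. Over all genes, 807 of 12034, 345 of 13543 and 275 of 14243 were lower in those settings. Ern1 was called in all 10 alternative settings. Several calls on these lists were kept in fewer than 5 of 10 alternative settings. They were Trib2 in old ND against young ND (4), Slc1a5 in old HFD against young HFD (3), and, in old HFD against young ND, Cebpg (4), Jdp2 (3), Slc7a5 (3), Slc1a5 (4), Trib2 (4), Sesn3 (2, lower) and Hsp90b1 (2). The remaining calls of old HFD against young ND on these lists, apart from Ppp1r15b, were kept in 5 to 10 settings. Eif2ak2 in old HFD against young HFD was kept in 5 of 10 settings and in 6 of the 24 fits with a mouse left out. Conversely, some list genes that were not called with HFD in the model of all mice were called in alternative settings. Besides Ppp1r15a and Eif2ak2, those called in 3 or more of 10 were Glul (5, higher), Cbs (3, lower) and Psph (3, lower) in old mice and Gclc (3, lower) in young mice.

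The mean of each group within each batch was removed, and the 21 pairs of the 7 tested genes were correlated over the 24 mice. No pair passed Benjamini-Hochberg adjustment. The largest correlation in size was that of Atf4 and Chac1 (Pearson r = -0.64, permutation p = 0.0201, adjusted 0.177, and Spearman rho = -0.62, permutation p = 0.00875, adjusted 0.184). The correlation was -0.57 without the 2 mice farthest from the median of Atf4, -0.31 in batch 1 and -0.85 in batch 2. The pair of Atf4 and Sesn2 had r = -0.53 and rho = -0.51 (permutation p = 0.00918 and 0.0282, adjusted 0.177 and 0.198), and r = -0.63 without the same 2 mice. Atf5 and Trib3 had r = 0.60 and rho = 0.44 (permutation p = 0.0369 and 0.0877, adjusted 0.194 and 0.307). Without the 2 mice farthest from the median of Atf5, r was 0.31. Trib3 and Psat1 had r = 0.55 and rho = 0.56 (permutation p = 0.0253 and 0.0185, adjusted 0.177 and 0.194). Without the 2 mice farthest from the median of Trib3, r was 0.33. Atf4 and its target Asns had r = -0.19 and rho = -0.20, with permutation p-values of 0.492 (adjusted 0.689) and 0.481 (adjusted 0.772).

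Log2 CPM was standardised for each of the 7 genes and averaged in every mouse. Outside the list the genes nearest to that average were Kdm3a (r = 0.78), Smim13 (0.77), Vegfb (0.75), Khnyn (0.72) and Tgif1 (0.72). With additive group and batch effects removed, rather than the mean of each group within each batch, the nearest were Fbxo21 (0.84), Sphk2, Grpel2, Sgk2 and Ccdc28a (0.79). These correlations describe 24 mice that share batches and depth, were picked as the highest of all genes tested, and carry no test.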

How the data were processed

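The authors aligned reads with STAR 2.7.3a to mm10, counted them per gene with HTSeq 0.11.2 and deposited the raw counts. They also deposited FPKM, made with CuffLinks and, per the table's name, adjusted between batches with ComBat. Groups, replicate numbers and batches came from the sample labels. No column lacked a sample.

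Counts were tested with edgeR 4.0.16 in R 4.3.3: TMM normalization, the filterByExpr minimum count of 10, group and batch terms, all 24 mice, quasi-likelihood F tests and Benjamini-Hochberg adjustment over 13583 genes at 0.05. SEs were derived from the F statistics. CPM used TMM-scaled library sizes, whose factors ran from 0.896 to 1.09. Depth limits precision for low genes, and counting error alone understates it, since reads were amplified without molecular identifiers. FPKM was tested with limma 3.58.1 after adding 1, or 0.1, before log2. Other alternatives were DESeq2 1.42.0, RLE normalization, no count filter, no batch term, a replicate block, each batch alone, only the groups compared and leaving out each mouse. Scripts were tested on simulated data.

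The members and lists were chosen with earlier results of these data known. Named genes are every member, up to 3 called genes per list and comparison by adjusted p, the 5 nearest genes, and some named beyond this rule after their values were seen (Ddit3, Fgf21, Eif2ak4 and called genes listed by name). Positions are from GENCODE M21 of GRCm38, the mm10 build. Promoters are from RefSeq, with all 9 genes matched. Permutations and plots used scipy 1.17.1 and matplotlib 3.10.9 under Python 3.11.15. Replicates are different mice.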

Additional observations from a re-analysis of the deposited data

Results flagged for a closer look

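Chac1 in young ND replicate 1 stood apart from the rest of its group. Its log2 CPM was -0.73, the lowest of the 6 mice, against 1.35 in the nearest mouse and a group median of 1.56, and the gap to the nearest mouse was 0.688 of the group's whole range. It was the 1 such value among 28 groups of 6 mice examined, where chance alone gives about 1 in 20 groups.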

How the results depend on the processing

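The number of members called was 1 for young HFD against young ND. It was 0 without the batch term, 0 with limma on log2(FPKM + 1), 0 in batch 1 alone, 0 in batch 2 alone, 2 with only the groups compared (Atf4 and Asns), and 0 to 1 when a mouse was left out. Over all genes, 174 of 13583 were called without the batch term and 288 of 13195 with that limma fit. In batch 1 alone 130 of 13543 were called, in batch 2 alone 9 of 14243, and with only the groups compared 2302 of 12353. With limma on log2(FPKM + 1) Asns had a change of -0.36, and its median FPKM of 0.206 lies below that pseudocount. Elsewhere the count was 0. Without the count filter it was 1 for old HFD against old ND (Asns), 1 for old ND against young ND (Slc7a11), 2 for old HFD against young HFD (Asns and Chac1), 2 for old HFD against young ND (Asns and Slc7a11) and 1 for the interaction (Asns). In the same order, 1108, 2053, 1235, 4623 and 587 of 32336 genes were called without the filter. DESeq2 gave 1 for old HFD against young HFD (Asns), and limma with either pseudocount gave 1 for old HFD against young ND (Atf5). Over all genes DESeq2 called 859 of 13583 there, and limma 2928 and 3236 of 13195 with pseudocounts of 1 and 0.1. Leaving out a mouse gave 0 to 1 for old HFD against old ND and for old HFD against young ND, and 0 for the other comparisons. With a replicate block instead of the batch term the count was 1 for young HFD against young ND and 0 elsewhere, the same counts as reported. Replicate numbers do not pair mice: the mean correlation of same-numbered mice ran from -0.02 to 0.38, and 7 of 24 mice matched best to their own number.

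Some log2 fold changes turned sign, none of them called. In batch 1 alone Psat1 was at 0.45 for young HFD against young ND, 0.23 for old HFD against old ND and -0.22 for the interaction, and Atf4 at -0.00075 for old ND against young ND. In batch 2 alone Atf4 was at 0.0525 for old HFD against old ND and 0.14 for old HFD against young ND, where Psat1 was at -0.60 and Sesn2 at 0.0556. In batch 2 Trib3 was at -0.0319 for old HFD against young HFD and -0.13 for the interaction. With limma, Atf4 for old ND against young ND was at -0.137 and -0.140. With a mouse left out, Psat1 ran from -0.43 to 0.15 for old HFD against old ND, Atf4 from -0.0319 to 0.109 for old ND against young ND, Sesn2 from -0.31 to 0.12 for old HFD against young ND, and in the interaction Atf5 from -0.164 to 0.0159, Trib3 from -0.20 to 0.20 and Psat1 from -0.16 to 0.77. Causes of these shifts were not tested.

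Over all genes, calls for young HFD against young ND ran from 9 to 2302 across settings beside 475, for old HFD against old ND from 15 to 1137 beside 409, for old ND against young ND from 2 to 2053 beside 1155, for old HFD against young HFD from 0 to 1235 beside 304, for old HFD against young ND from 617 to 4675 beside 4100, and for the interaction from 0 to 587 beside 0. For old HFD against young ND, 57.2% of calls were higher, and 42.2% with limma on log2(FPKM + 1). Low counts of Asns, Chac1 and Psat1, and of Phgdh and Slc7a11 above all, limit what could be detected.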
